A study of Mus musculus with 12 samples.

Results

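The clustered protocadherin genes of the mouse retina were followed through excitotoxic injury. They were taken as every gene in the table of gene levels whose name starts with Pcdha, Pcdhb or Pcdhg followed by a digit, or by a, b or c and a digit, which gave 58 of 55487 genes. On GRCm38 all of them lie on the plus strand of chromosome 18, the 14 alpha genes between 36930184 and 37187661, the 22 beta genes between 37264938 and 37524479 and the 22 gamma genes between 37661793 and 37841873. The name *Pcdha11* was listed for 2 alpha genes, which are told apart here by their Ensembl IDs.

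RNA-seq was made from whole retina of C57BL/6J (B6J) mice (WT), of mice infected with AAV2.7m8 carrying pU6-shPax6-GFP (sh*Pax6*) and of *Jnk3*-/- mice (JNK3 KO), each after an intravitreal injection of 1 μL of PBS or of 1 μL of 40 mM NMDA (40 nmol), an agonist of glutamate receptors that injures inner retinal neurons. Each of the 6 groups holds 2 libraries, which makes 12, and each library was made from polyA RNA of several pooled retinas. No library with the shScramble vector is among the 12, so infection and knockdown cannot be told apart, and the U6 promoter does not restrict the shRNA to a cell type. JNK3 KO is a germline knockout, so all cells of the animal carry it. Nothing in the labels says that the 2 libraries of a group come from separate animals, so the p-values measure the spread between these libraries, which may be technical.

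Clustered protocadherins are cadherin-like adhesion proteins of the neuronal surface. In the alpha and gamma clusters each gene has its own large first exon, which encodes the extracellular part, and this exon is spliced to constant exons that all genes of the cluster use, whereas the beta genes mostly consist of a single exon. Single neurons express a few of them, chosen through promoters bound by CTCF and cohesin, and the proteins recognise the same combination on another membrane. The C-type genes (*Pcdhac1*, *Pcdhac2*, *Pcdhgc3*, *Pcdhgc4* and *Pcdhgc5*) are chosen less randomly than the others. In the retina the gamma cluster is known for the self-avoidance of the dendrites of starburst amacrine cells and for the survival of inner retinal neurons.

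The levels are FPKM, that is fragments per kilobase of transcript scaled to the mapped fragments of the library, as deposited for genes and transcripts. These values are no counts, so the depth behind a value and its counting error are unknown. Differences are given on the scale log2(FPKM + 0.1), which understates changes of low genes. Calls came from limma's test over the 16471 genes that averaged more than 1 FPKM in some group. A call needed an adjusted p (Benjamini-Hochberg) below 0.05 together with a log2 difference beyond 1 in either direction. Of the members, 54 passed this filter (11 alpha, 21 beta and 22 gamma). *Pcdha1*, *Pcdha3*, *Pcdha8* and *Pcdhb1* did not, and were listed at no more than 0.92 FPKM in any library. *Pcdha5* and *Pcdhac1* passed through WT PBS alone and *Pcdhgb8* through JNK3 KO NMDA alone, so medians are given over all 58 members from a fit without the filter.

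With PBS, *Pax6*, the gene targeted by the shRNA, read 173.48 and 177.3 FPKM in WT but 94.56 and 92.84 FPKM in sh*Pax6* retinas. Likewise *Mapk10*, which encodes JNK3, read 42.79 and 50.72 FPKM in WT but 9.47 and 8.75 FPKM in JNK3 KO retinas. After NMDA the targeted genes did not separate the genotypes in this way. *Pax6* was then at 55.42 and 53.81 FPKM in WT and 67.52 and 58.73 FPKM in sh*Pax6*, and *Mapk10* at 8.98 and 6 FPKM in WT and 6.65 and 13.77 FPKM in JNK3 KO. The WT NMDA libraries stood apart from the rest, because their FPKM over all genes summed to 805627.2 and 820180.2, against 541210.3 to 576921.5 in the other 10 libraries. Every result on the WT response below rests on these 2 libraries, so none of them can be given without the pair. The members also varied most between these 2 libraries, with a median absolute log2 difference of 0.66, against 0.18 over all genes tested.

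In PBS-injected WT retinas the gamma cluster was the most abundant per length and the alpha cluster the least. The alpha genes summed to 21.83 and 22.75 FPKM in the WT PBS libraries, the beta genes to 83.74 and 80.32 FPKM and the gamma genes to 99.77 and 93.42 FPKM. Of the summed level of the 3 clusters, the alpha genes held 11.1%, the beta genes 40.8% and the gamma genes 48.1%. The leading genes of the alpha and gamma clusters were C-type genes. *Pcdhac2* held 26.4% of the alpha sum at a mean of 5.89 FPKM, and *Pcdhgc3* held 18.5% of the gamma sum at a mean of 17.9 FPKM, followed by *Pcdhgc4* at 9.56 FPKM. The C-type genes *Pcdhac1* and *Pcdhgc5*, at 1.16 and 1.69 FPKM, lay below the medians of their clusters. The beta cluster had no such leading gene, with *Pcdhb9* at 8.68, *Pcdhb20* at 8.45 and *Pcdhb17* at 7.56 FPKM. The median member was at 1.29 FPKM in the alpha, 3.29 FPKM in the beta and 3.47 FPKM in the gamma cluster.

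After NMDA the alpha and beta clusters of WT retinas stood well below their PBS level, and so did the gamma cluster apart from a single transcript. The summed alpha level was 22.3 ± 0.65 FPKM (SD, n = 2) with PBS and 5.44 ± 0.41 FPKM (n = 2) with NMDA, or 24.4% of it. For the beta cluster the sums were 82.0 ± 2.42 FPKM with PBS and 26.3 ± 0.014 FPKM with NMDA, or 32.1%. The gamma sum went from 96.6 ± 4.49 FPKM to 89.0 ± 2.27 FPKM, or 92.2%, but a single short transcript of *Pcdhgc4* (ENSMUST00000195239) made up most of what was listed after NMDA. Without this transcript the gamma sum was 21.57 and 21.67 FPKM in the WT NMDA libraries, or 22.4% of WT PBS. Whole retina was sequenced, so fewer cells of a type and less RNA per cell cannot be told apart.

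**Figure D1:**
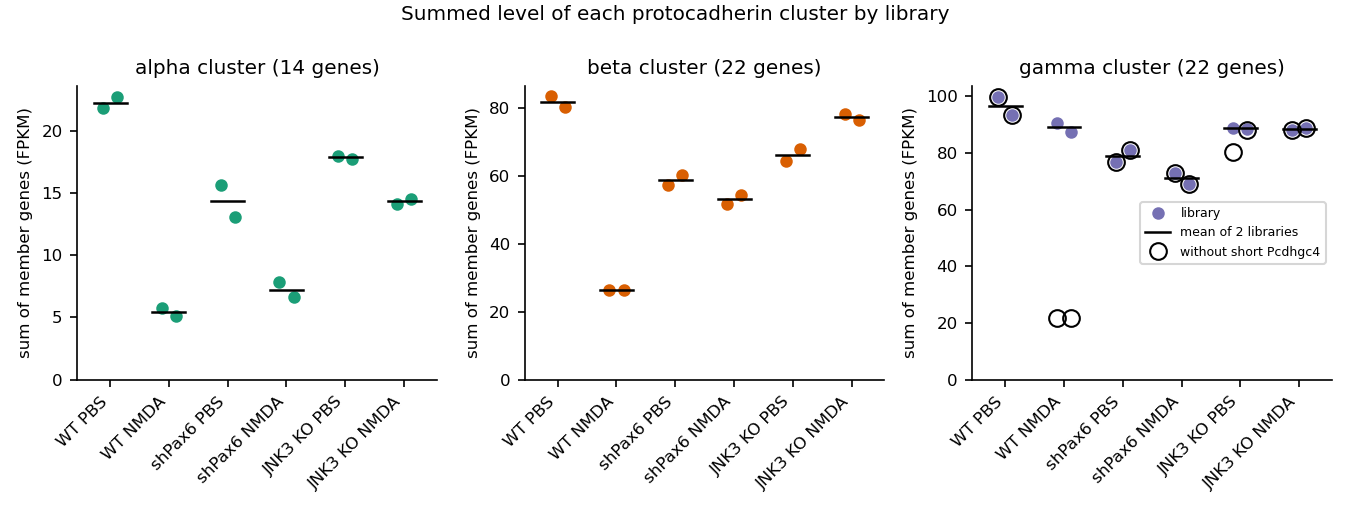
Sum of the FPKM of the member genes (vertical axis, starting at 0) in each library of the 6 groups, for the alpha, beta and gamma clusters; filled points are libraries, lines the mean of 2 libraries, and open circles the gamma sum without the short Pcdhgc4 transcript. The alpha and beta sums are lowest in WT NMDA, at 5.15 to 5.73 and 26.3 to 26.32 FPKM, and the gamma sum is lowest there only without the short transcript.

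Gene by gene, 48 of the 58 members fell after NMDA in WT and 1 rose. Of all genes tested, 20.9% fell and 14.2% rose. By cluster, 9 of 14 alpha, 19 of 22 beta and 20 of 22 gamma genes fell, and the gene that rose was *Pcdhgc4*. The alpha count includes *Pcdha5* and *Pcdhac1*, which passed the filter through WT PBS alone. Without the filter 48 members fell, and when genes were filtered by their mean over the 12 libraries 41 fell. Of all genes tested 35.1% were called in either direction. The median log2 difference over all members was -2.0, with -2.38 in the alpha, -1.68 in the beta and -2.43 in the gamma cluster, and the median of all genes tested was -0.09. In 55 members both NMDA libraries were below both PBS libraries, as in 44.3% of the genes tested, and *Pcdhgc4* was higher in both, as were 36.9% of the genes tested. The libraries overlapped in *Pcdha3* and *Pcdha4*. When levels were rescaled to TPM, so that every library summed to the same total, the all-gene median moved to -0.68 and 52 members fell. With a correction for transcript length 38 members fell. The shares of all genes called belong to the main setting, so the counts under other filters and scalings have no share beside them.

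**Figure D2:**
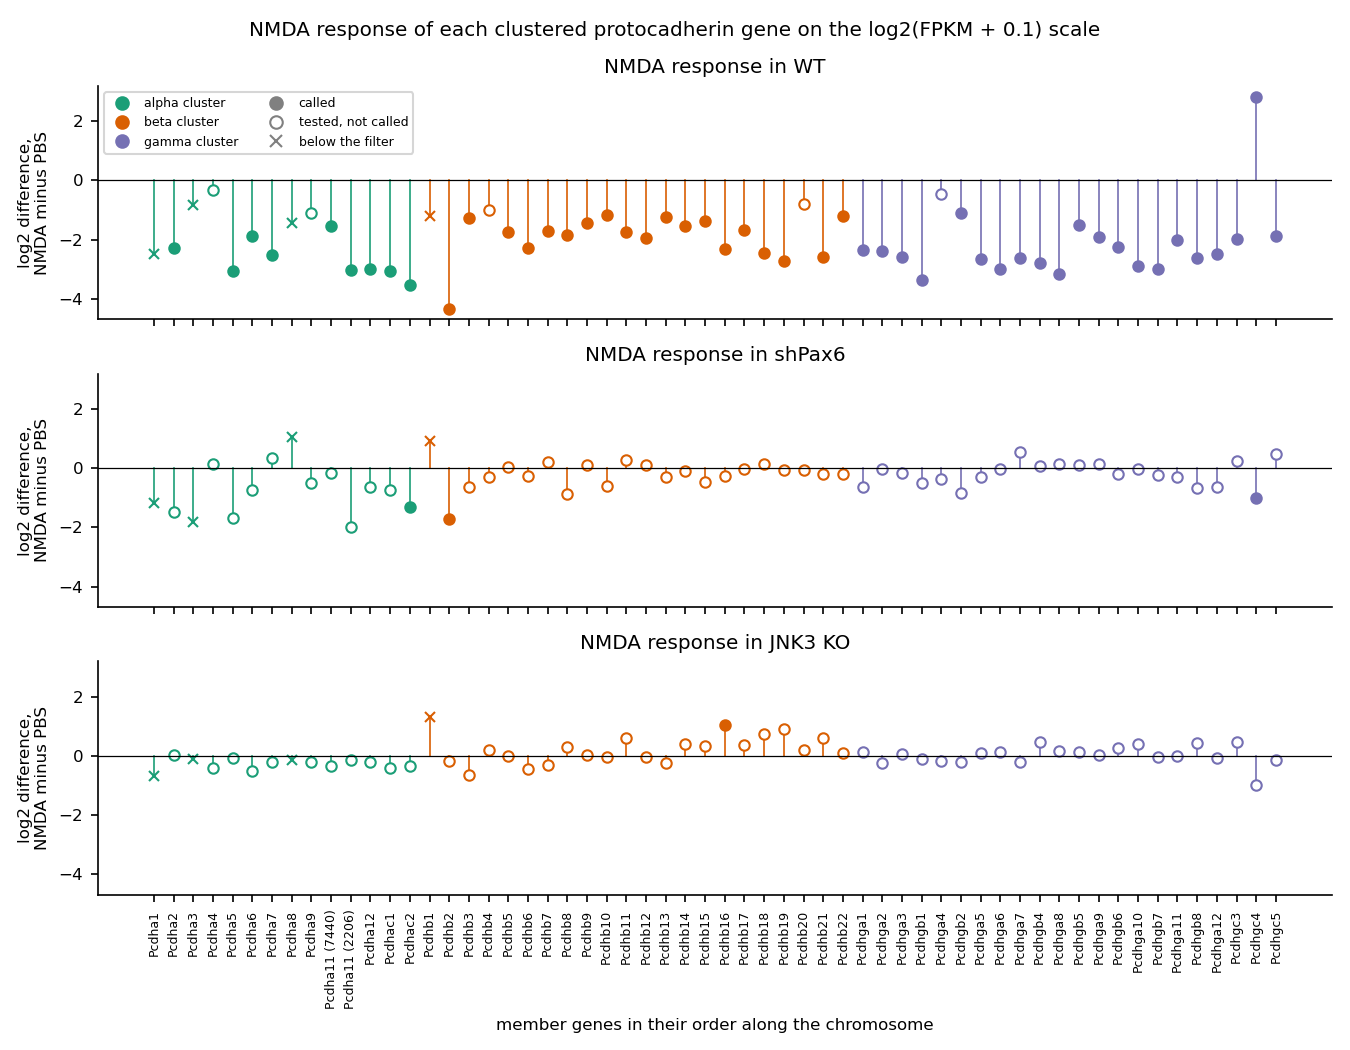
Log2 difference between NMDA and PBS (vertical axis, log2(FPKM + 0.1) scale) of each of the 58 members in their order along the chromosome, in WT, shPax6 and JNK3 KO retinas; filled points are called, open points tested and not called, and crosses lie below the filter on low values. In WT 57 of 58 members are below 0 and Pcdhgc4 is at 2.83, whereas in shPax6 41 of 58 members are below 0, with an alpha median of -0.74, and in JNK3 KO the median over all members is -0.02.

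*Pcdhac2*, which is known for the even spacing of serotonergic axons, had the largest fall of the alpha cluster. It was listed at 5.55 and 6.22 FPKM in WT PBS, 0.52 and 0.33 in WT NMDA, 4.78 and 4.6 in PBS-injected sh*Pax6*, 1.59 and 2.1 in sh*Pax6* NMDA, 4.56 and 5.24 in JNK3 KO PBS and 3.68 and 4.01 in JNK3 KO NMDA. The NMDA libraries were below the PBS libraries in every genotype, farthest in WT and least in JNK3 KO. The log2 difference was -3.53 in WT (SE 0.24, adjusted p = 2.06e-06, limma's test with Benjamini-Hochberg adjustment), -1.31 in sh*Pax6* (SE 0.24, adjusted p = 0.00323) and -0.34 in JNK3 KO (SE 0.24, adjusted p = 0.446). The call in sh*Pax6* was lost when the spread was taken from the 2 groups compared alone (adjusted p = 0.103).

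*Pcdhac1*, the other C-type gene of the alpha cluster, was low throughout. It was listed at 0.96 and 1.35 FPKM in WT PBS, 0 and 0.12 in WT NMDA, 0.58 and 0.54 in PBS-injected sh*Pax6*, 0.31 and 0.28 in sh*Pax6* NMDA, 0.92 and 0.82 in JNK3 KO PBS and 0.65 and 0.6 in JNK3 KO NMDA. As for *Pcdhac2*, NMDA libraries lay below PBS libraries in each genotype. The log2 differences were -3.06 in WT, -0.74 in sh*Pax6* and -0.42 in JNK3 KO. The WT value is given as a description, since the gene passed the filter through WT PBS alone.

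*Pcdhgc3*, a gamma C-type gene expressed in neurons and glia, was the most abundant member in PBS-injected WT retinas. Its level was 18.02 and 17.69 FPKM in WT PBS, 4.18 and 4.73 in WT NMDA, 12.2 and 15.47 in PBS-injected sh*Pax6*, 16.02 and 16.54 in sh*Pax6* NMDA, 12.44 and 15.87 in JNK3 KO PBS and 19.5 and 19.23 in JNK3 KO NMDA. The WT NMDA libraries were the lowest of the 12, and in the other genotypes the NMDA libraries lay above the PBS libraries. The fall in WT was called (log2 difference -1.98, SE 0.15, limma's adjusted p = 3.72e-06), and the differences of 0.24 in sh*Pax6* (adjusted p = 0.252) and 0.46 in JNK3 KO (adjusted p = 0.0868) were not.

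*Pcdhgc5* was listed at 1.86 and 1.52 FPKM in WT PBS, 0.24 and 0.61 in WT NMDA, 0.52 and 0.81 in PBS-injected sh*Pax6*, 0.79 and 1.14 in sh*Pax6* NMDA, 1.53 and 2.09 in JNK3 KO PBS and 1.47 and 1.77 in JNK3 KO NMDA. In WT the groups did not overlap and the fall was called (log2 difference -1.86, SE 0.43, limma's adjusted p = 0.00448), but not with the length correction, which gave -0.98, nor with a pseudocount of 1, which gave -0.93. The sh*Pax6* libraries of either treatment lay below WT PBS, and within sh*Pax6* and JNK3 KO the treatments overlapped.

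**Figure D3:**
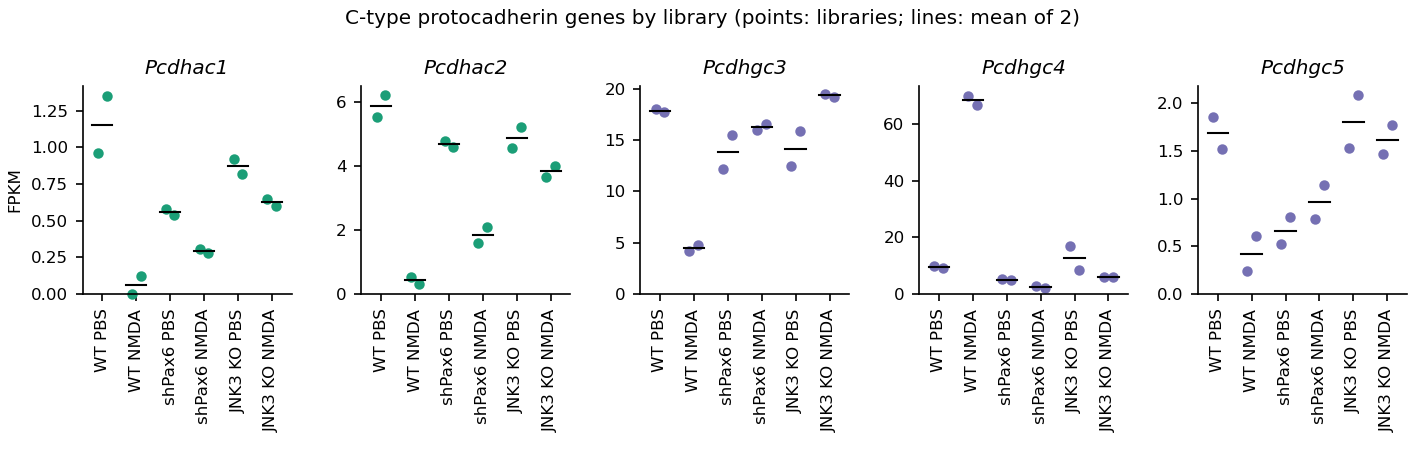
FPKM (vertical axes, each starting at 0 with its own range) of the 5 C-type genes in the libraries of the 6 groups; points are libraries and lines the mean of 2. Pcdhac1, Pcdhac2, Pcdhgc3 and Pcdhgc5 are lowest in WT NMDA, and Pcdhgc4 is highest there, at 70.13 and 66.73 FPKM.

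*Pcdhgc4* (chromosome 18, 37815079 to 37841873), the gamma gene best known for neuronal survival, went the other way in the gene table. It was listed at 9.8 and 9.32 FPKM in WT PBS, 70.13 and 66.73 in WT NMDA, 5.46 and 4.81 in PBS-injected sh*Pax6*, 2.77 and 2.24 in sh*Pax6* NMDA, 16.98 and 8.34 in JNK3 KO PBS and 6.02 and 5.85 in JNK3 KO NMDA. The WT NMDA libraries were thus the highest of all and the sh*Pax6* NMDA libraries the lowest. Its log2 difference was 2.83 in WT (SE 0.27, adjusted p = 1.87e-05, limma's test), -1.01 in sh*Pax6* (SE 0.27, adjusted p = 0.0213) and -0.99 in JNK3 KO (SE 0.27, adjusted p = 0.0512). The fall in sh*Pax6* was lost on leaving out any 1 of the 4 sh*Pax6* libraries and with pseudocounts of 0.5 and 1. The JNK3 KO difference was called without JNK3 KO PBS replicate 2, at -1.5, and with quantile normalization and the length correction.

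The transcript table split this gene into opposite parts. The short transcript was listed at 69.08 and 65.77 FPKM in the WT NMDA libraries, at 8.55 and 0.31 FPKM in JNK3 KO PBS and at 0 in the other 8 libraries. The full-length transcript (ENSMUST00000066140) was at 9.14 and 8.25 FPKM in WT PBS, 0.29 and 0.58 in WT NMDA, 5.46 and 4.15 in PBS-injected sh*Pax6*, 2.77 and 0.41 in sh*Pax6* NMDA, 7.85 and 7.37 in JNK3 KO PBS and 5.01 and 3.17 in JNK3 KO NMDA. The full-length form therefore fell in WT (log2 difference -4.09, SE 0.72, limma's adjusted p = 0.00289 over 49940 transcripts), while the short form was listed above 0 in both libraries only in WT NMDA and JNK3 KO PBS. With the short transcript taken out of the gene, a setting added after its values were seen, *Pcdhgc4* was at 1.05 and 0.96 FPKM in WT NMDA and its WT difference was -3.13 (SE 0.16, limma's adjusted p = 4.83e-07). That is the direction of the other 57 members. The differences in this setting were -1.01 in sh*Pax6* (SE 0.16, limma's adjusted p = 0.00172) and -0.46 in JNK3 KO (SE 0.16, adjusted p = 0.116). Only the former was called.

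The short transcript is 2272 bases long in GENCODE M21, and 2119 of them (93.3%) are gamma constant exons that other members use as well. Its own bases number 153, against 2905 of 5024 in the full-length form. Reads in the constant exons fit many gamma transcripts, and the program RSEM shares them out, so the level of any single alpha or gamma member is uncertain, and the gamma sum depends on this sharing too. By FPKM times annotated length, a rough estimate of fragments, the short transcript held 63.8% and 63.3% of all gamma fragments in the WT NMDA libraries. The gamma cluster as a whole was then at 53.6% of WT PBS, and at 19.6% without the short transcript, though leaving it out also drops any constant-exon reads of other members assigned to it. A transcript of *Pcdhgc3* annotated as a target of nonsense-mediated decay (ENSMUST00000192103, 3588 bases, 59.1% of them shared), was the other member transcript called higher in WT, at 0.24 and 0 FPKM with PBS and 2.21 and 1.62 FPKM with NMDA. Of 88 member transcripts, 67 were tested, and 48 of them were called lower and 2 higher, beside 20.9% lower and 8.91% higher of all transcripts tested.

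**Figure D4:**
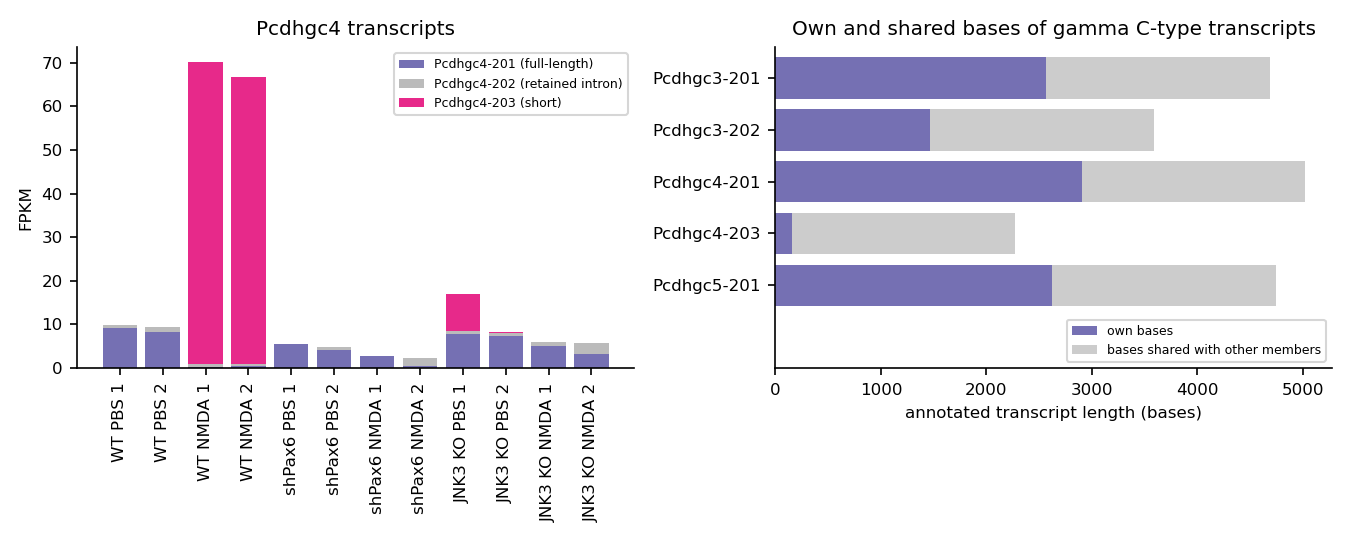
Left, FPKM (stacked bars from 0) of the 3 Pcdhgc4 transcripts in the 12 libraries; right, annotated length in bases of gamma C-type transcripts, split into own bases and bases shared with other members. The short transcript reaches 69.08 and 65.77 FPKM in the WT NMDA libraries and has 153 own bases.

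Among the other alpha genes, which encode receptors that differ in their outer domains and share one cytoplasmic tail, *Pcdha4*, *Pcdha7* and *Pcdha12* had the highest means over the 12 libraries. *Pcdha4* was listed at 2.38 and 2.48 FPKM in WT PBS, 1.44 and 2.53 in WT NMDA, 0.28 and 1.25 in PBS-injected sh*Pax6*, 0.51 and 0.92 in sh*Pax6* NMDA, 2.71 and 2.11 in JNK3 KO PBS and 1.83 and 1.74 in JNK3 KO NMDA. It was the alpha member with the smallest WT difference (-0.33, SE 0.56, limma's adjusted p = 0.643), and its WT libraries overlapped. The transcript table split this gene as well. Its form of 5363 bases went from 2.38 and 1.6 FPKM to 0 and 0.33 FPKM in WT and was called lower (-3.31, limma's adjusted p = 0.012), while its form of 4129 bases, 59% of them shared, was at 0 and 0.89 FPKM with PBS and 1.44 and 2.2 FPKM with NMDA. All sh*Pax6* libraries were below all WT and JNK3 KO libraries for this gene.

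*Pcdha7* was at 2.06 and 1.87 FPKM in WT PBS, 0.16 and 0.4 in WT NMDA, 0.98 and 0.5 in PBS-injected sh*Pax6*, 1.06 and 0.79 in sh*Pax6* NMDA, 1.55 and 1.26 in JNK3 KO PBS and 1.17 and 1.25 in JNK3 KO NMDA. *Pcdha12* was at 1.95 and 1.26 FPKM in WT PBS, 0 and 0.35 in WT NMDA, 1.73 and 1.27 in PBS-injected sh*Pax6*, 1.32 and 0.64 in sh*Pax6* NMDA, 1.2 and 1.09 in JNK3 KO PBS and 0.96 and 1.01 in JNK3 KO NMDA. For both genes the WT NMDA libraries were the lowest of the 12. The WT falls were -2.52 for *Pcdha7* (SE 0.43, limma's adjusted p = 0.000763) and -2.98 for *Pcdha12* (SE 0.66, adjusted p = 0.00344), and the latter was lost when the spread came from the 2 groups compared alone (adjusted p = 0.0637). In WT NMDA, 7 of the 14 alpha genes were listed at 0 in at least 1 library, and *Pcdha1* in both.

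The beta genes, which need no splicing to constant exons, share few annotated exon positions with each other (at most 9.7% of a transcript). Similar sequence at different positions was not counted, so how far their levels depend on the sharing of reads was not tested. *Pcdhb2* had the largest fall of all members with the pseudocount of 0.1. It was listed at 2.94 and 1.9 FPKM in WT PBS, 0 and 0.05 in WT NMDA, 3.42 and 1.69 in PBS-injected sh*Pax6*, 0.56 and 0.78 in sh*Pax6* NMDA, 1.49 and 1.14 in JNK3 KO PBS and 1.16 and 1.14 in JNK3 KO NMDA. It was nearly absent from WT NMDA, lower after NMDA in sh*Pax6*, and overlapped between the treatments in JNK3 KO. The log2 differences were -4.33 in WT (SE 0.44, limma's adjusted p = 2.65e-05) and -1.72 in sh*Pax6* (SE 0.44, adjusted p = 0.0169). With a pseudocount of 1 the WT difference was -1.72 in *Pcdhb2* and -2.27 in *Pcdhac2*. The sh*Pax6* call was lost without sh*Pax6* PBS replicate 1 (-1.23), without sh*Pax6* NMDA replicate 1 (-1.51) and when the spread came from the 2 groups compared alone.

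*Pcdhb16* was listed at 4.64 and 3.9 FPKM in WT PBS, 0.59 and 0.99 in WT NMDA, 3.17 and 3.7 in PBS-injected sh*Pax6*, 2.96 and 2.76 in sh*Pax6* NMDA, 2.09 and 3.01 in JNK3 KO PBS and 5.28 and 5.35 in JNK3 KO NMDA. *Pcdhb19* was at 4.78 and 4.18 FPKM in WT PBS, 0.54 and 0.67 in WT NMDA, 3.43 and 4.22 in PBS-injected sh*Pax6*, 4.08 and 3.19 in sh*Pax6* NMDA, 2.51 and 2.42 in JNK3 KO PBS and 4.91 and 4.62 in JNK3 KO NMDA. Both genes had their lowest levels in WT NMDA and their highest group means in JNK3 KO NMDA. For *Pcdhb19* the latter libraries overlapped with those of WT PBS. In WT *Pcdhb16* and *Pcdhb19* fell by 2.33 and 2.7 on the log2 scale (SE 0.27 and 0.22, limma's adjusted p = 6.65e-05 and 5.86e-06).

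The 3 most abundant beta genes had smaller WT differences than *Pcdhb2*, *Pcdhb16* and *Pcdhb19*, and *Pcdhb17* was near the beta median of -1.68. *Pcdhb20* was at 8.17 and 8.72 FPKM in WT PBS, 5.16 and 4.5 in WT NMDA, 5.6 to 7.18 in the sh*Pax6* libraries and 7.26 to 8.53 in the JNK3 KO libraries. Its WT difference of -0.80 (SE 0.15, limma's adjusted p = 0.0014) missed the limit on size, although the groups did not overlap. *Pcdhb9* went from 8.54 and 8.82 FPKM to 3.31 and 2.96 FPKM in WT (log2 difference -1.44, SE 0.16, limma's adjusted p = 3.84e-05). *Pcdhb17* went from 7.48 and 7.63 FPKM to 2.59 and 2.08 FPKM (log2 difference -1.66, SE 0.17, limma's adjusted p = 3.32e-05). After NMDA the median beta gene held 29.2% of its WT PBS level, and the range ran from 1.03% in *Pcdhb2* to 57.2% in *Pcdhb20*.

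In the gamma cluster the A-type and B-type genes, which differ in the sequence family of their variable exon, had medians close to each other. The median WT difference was -2.53 over the 12 A-type and -2.63 over the 7 B-type genes. *Pcdhgb1* had the largest fall, from 3.35 and 3.14 FPKM to 0.12 and 0.38 FPKM in WT (log2 difference -3.36, SE 0.39, limma's adjusted p = 5.9e-05), with 1.91 to 3.97 FPKM in sh*Pax6* and 2.91 to 3.67 FPKM in JNK3 KO libraries. *Pcdhgb6* went from 5.93 and 5.8 FPKM to 0.81 and 1.61 FPKM (-2.26, SE 0.28, limma's adjusted p = 0.000102), and *Pcdhga11* from 5.19 and 4.82 FPKM to 1.03 and 1.31 FPKM (-2.01, SE 0.20, limma's adjusted p = 2.33e-05). *Pcdhga4* was the exception, at 7.09 and 6.4 FPKM with PBS and 5.18 and 4.55 FPKM with NMDA (-0.46, SE 0.26, limma's adjusted p = 0.157), and its WT libraries did not overlap either. In the transcript table its full-length form of 4727 bases went from 5.89 and 6.4 FPKM to 3.19 and 2.38 FPKM and was called lower (-1.13, limma's adjusted p = 0.0032), while a form of 797 bases was at 1.2 and 0 FPKM with PBS and 2 and 2.17 FPKM with NMDA. The 4 other annotated genes whose exons overlap the gamma genes on the same strand were listed at no more than 2.09 FPKM in any library. Exons on the opposite strand overlap those of 8 gamma, 4 alpha and 1 beta member, and whether counting used strand is not given in the sources used here, so reads of these pairs cannot be told apart.

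The WT response of all genes varied with transcript length, and the members are long. The median log2 difference of all genes tested was 0.74 for transcripts under 2 kb and -1.24 for those over 6 kb. Among transcripts of 4 to 5 kb it was -0.55, with quartiles of -1.16 and -0.005, while the 22 tested members of that class had a median of -2.47. In the class of 5 to 6 kb the values were -0.87 for all genes and -2.39 for 16 members. The 10 members of 3 to 4 kb had a median of -1.57, against -0.23 for all genes of that class. Over 6 kb the 3 members were at -1.54, within the quartiles of that class. The part of length in the members' fall beyond these classes and the correction above was not tested.

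**Figure D5:**
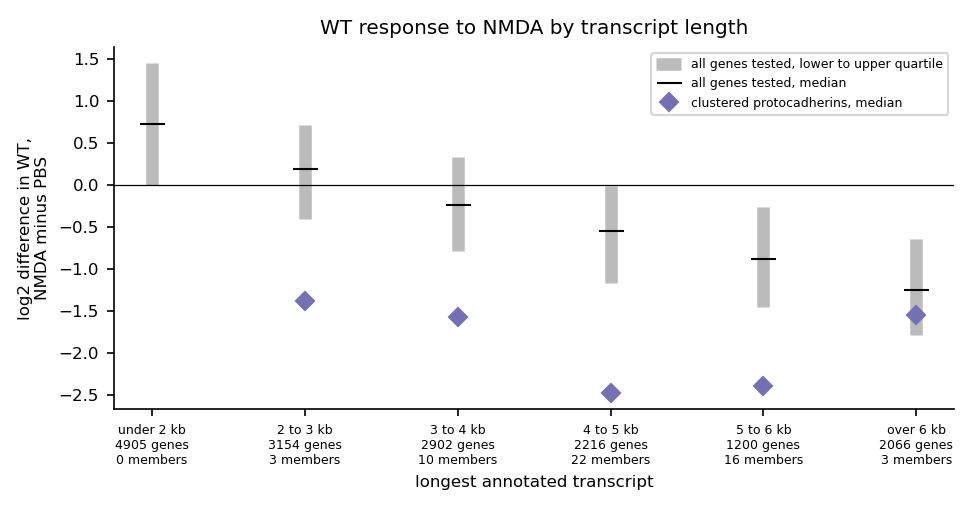
Log2 difference between NMDA and PBS in WT (vertical axis) by length class of the longest annotated transcript; grey bars run from the lower to the upper quartile of all genes tested, black lines are their medians and diamonds the medians of the tested members. The members lie below the lower quartile in the classes from 2 to 6 kb and within the quartiles over 6 kb.

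In sh*Pax6* retinas all 3 cluster sums were lower after NMDA, with no overlap between the libraries, and the alpha sum was lowest relative to PBS. The beta sum was 57.55 and 60.4 FPKM with PBS and 51.76 and 54.56 FPKM with NMDA, or 90.1% of PBS. The gamma sum was 76.73 and 81.25 FPKM with PBS and 73.02 and 69.17 FPKM with NMDA, or 90.01%. The alpha sum, at 15.65 and 13.05 FPKM with PBS and 7.82 and 6.63 FPKM with NMDA, stood at 50.3%. Over the 58 members the median log2 difference was -0.22 (alpha -0.74, beta -0.15, gamma -0.18), and that of all genes tested was 0.10.

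Only *Pcdhac2*, *Pcdhb2* and *Pcdhgc4* were called in sh*Pax6*, all lower. Of all genes tested 13.6% were called, 4.94% lower and 8.64% higher. At an unadjusted p under 0.05, 10 members were lower, beside 15.1% of all genes tested, and 0 were higher, beside 25.8%. In 21 members the NMDA libraries lay below the PBS libraries, as in 22% of the genes tested, and in 3 above, against 35%. The median absolute log2 difference of the members between replicates was 0.38 in PBS-injected sh*Pax6* and 0.28 in sh*Pax6* NMDA. It was 0.15 in WT PBS and 0.66 in WT NMDA.

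In JNK3 KO retinas the gamma sum after NMDA was close to that with PBS, the beta sum was higher and the alpha sum lower. The beta sum was 64.59 and 68.11 FPKM with PBS and 78.47 and 76.55 FPKM with NMDA, or 117% of PBS, and the groups did not overlap. The gamma sum was 89.02 and 88.58 FPKM with PBS and 88.16 and 88.95 FPKM with NMDA, or 99.7%, and the groups overlapped. Without the short *Pcdhgc4* transcript it was 105% of PBS. The alpha sum was 18.01 and 17.78 FPKM with PBS and 14.17 and 14.55 FPKM with NMDA, or 80.2%, with no overlap.

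*Pcdhb16* was the only member called in JNK3 KO, and it rose by 1.05 on the log2 scale (SE 0.27, limma's adjusted p = 0.0415), where 2.65% of all genes tested were called, 0.777% higher and 1.87% lower. At an unadjusted p under 0.05, 4 members were higher and 2 lower, beside 11.1% and 13.1% of all genes tested. The call was lost on leaving out any 1 of the 4 JNK3 KO libraries, where the difference ran from 0.80 to 1.31. *Pcdhb19* had a difference of 0.92 (SE 0.22, adjusted p = 0.028), which missed the limit on size. The median over the 58 members was -0.02, with -0.20 in the alpha, 0.20 in the beta and 0.05 in the gamma cluster, and -0.01 over all genes tested. Without JNK3 KO PBS replicate 1 the gamma median was -0.09. The NMDA libraries were above the PBS libraries in 13 of 22 beta, 5 of 22 gamma and 0 of 14 alpha genes, beside 28.7% of the genes tested, and below them in 8 of 14 alpha genes, beside 32.8%.

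The responses themselves differed between genotypes. Relative to WT, the response was higher in sh*Pax6* in 34 members and lower in *Pcdhgc4*, where 32% of all genes tested were called, 21.7% higher and 10.3% lower. By cluster these were 3 of 14 alpha, 13 of 22 beta and 18 of 22 gamma genes. In JNK3 KO the response was higher in 42 members and lower in *Pcdhgc4*, beside 20.1% and 15.5% of all genes tested (35.6% in all), with 6 alpha, 17 beta and 19 gamma genes. Both counts include *Pcdhac1*, which passed the filter through WT PBS alone. The JNK3 KO count also includes *Pcdhgb8*, which passed through JNK3 KO NMDA alone. When genes were filtered by their mean over the 12 libraries, the response was higher in 33 members in sh*Pax6* and in 38 in JNK3 KO. The shares of all genes above belong to the main filter. These 2 differences share the 4 WT libraries, so they are not independent of each other. The median difference over the 58 members was 1.95 for sh*Pax6* and 2.14 for JNK3 KO, and over all genes tested it was 0.28 and 0.03.

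The largest differences of the alpha cluster were those of *Pcdha7* in sh*Pax6* (2.85, SE 0.61, limma's adjusted p = 0.00408) and of *Pcdhac2* in JNK3 KO (3.19, SE 0.34, adjusted p = 5.49e-05). In the beta cluster they were those of *Pcdhb19* in sh*Pax6* (2.63, SE 0.31, limma's adjusted p = 0.000138) and of *Pcdhb2* in JNK3 KO (4.16, SE 0.62, adjusted p = 0.000451). With a pseudocount of 1 the JNK3 KO difference was 1.62 in *Pcdhb2* and 2.41 in *Pcdhb16*. For *Pcdhgc4* the differences were -3.84 in sh*Pax6* (SE 0.39, limma's adjusted p = 6e-05) and -3.82 in JNK3 KO (SE 0.39, adjusted p = 4.04e-05), and without the short transcript they turned to 2.12 and 2.66. *Pcdhgc3* had differences of 2.22 and 2.44 (SE 0.21 for both, limma's adjusted p = 4.12e-05 and 1.54e-05).

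With PBS alone, no member was called between the genotypes, although most were listed lower than in WT. In sh*Pax6* 52 of 58 members had a negative difference, with a median of -0.41 (alpha -1.12, beta -0.50, gamma -0.32), and the median of all genes tested was -0.06. By limma's test 0 members were called, against 4.43% of all genes tested (0.522% higher and 3.9% lower), and 12 members, all lower, had an unadjusted p under 0.05, as had 19.3% of all genes tested in that direction and 10.3% in the other. Both libraries were below both WT libraries in 40 members, as in 35.1% of the genes tested, and above them in 2, beside 22.3%. Largest among the named genes were *Pcdha4* (-1.82, SE 0.56, limma's adjusted p = 0.0568), *Pcdha7* (-1.36, SE 0.43, adjusted p = 0.0637) and *Pcdhgc5* (-1.25, SE 0.43, adjusted p = 0.084). Without sh*Pax6* PBS replicate 2, 4 members were called, *Pcdha4* among them, and without sh*Pax6* PBS replicate 1 the only call was *Pcdha7*.

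In JNK3 KO with PBS 47 of 58 members had a negative difference from WT, with a median of -0.27 (alpha -0.36, beta -0.28, gamma -0.13), and that of all genes tested was 0. No member was called by limma's test, against 0.231% of all genes tested (0.103% higher and 0.127% lower), and 3 members, all lower, had an unadjusted p under 0.05, as had 5.97% of all genes tested in that direction and 9.16% in the other. Both JNK3 KO libraries lay below both WT libraries in 32 members, as in 26.7% of all genes tested, and above them in 3, beside 27%. *Pcdhb19* had the lowest p of the named genes (-0.83, SE 0.22, limma's adjusted p = 0.109).

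Genes that act on or with the clusters, or do similar work, were described from 4 lists. Beside the counts of these lists, 20.9% of all genes tested fell and 14.2% rose in WT. In sh*Pax6* 4.94% fell and 8.64% rose, and in JNK3 KO 1.87% fell and 0.777% rose. The part of transcript length in the falls of the lists was not tested. With PBS, the only calls in them were 2 lower partners and 1 lower recognition molecule in sh*Pax6*, where 3.9% of all genes tested were lower. Of 21 regulators of the clusters (CTCF, cohesin, DNA methylation and repressors), 12 fell in WT, with a median of -1.04, and 0 were called in sh*Pax6* or JNK3 KO, with medians of 0.11 and 0.28. *Stag2*, a cohesin subunit, was at 37.01 and 36.37 FPKM in WT PBS and 8.29 and 8.8 in WT NMDA (log2 difference -2.09, SE 0.08, limma's adjusted p = 7.63e-08). *Tet1*, which oxidises methylated cytosine, went from 2.61 and 2.95 FPKM to 0.36 and 0.3 FPKM (-2.74, SE 0.29, adjusted p = 3.57e-05).

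Of 20 intracellular partners and proteases, 7 fell and 1 rose in WT, 2 fell and 1 rose in sh*Pax6* and 1 fell in JNK3 KO, with medians of -0.85, 0.10 and 0.05. *Cyfip2*, a subunit of the WAVE complex that protocadherin tails bind, fell by 2.02 in WT, and *Ret*, a receptor kinase, by 1.85 in WT and 1.40 in sh*Pax6* (limma's adjusted p = 3.24e-08, 1.9e-05 and 0.000438). *Ptk2b*, the kinase PYK2 that the shared tails hold in check, rose by 2.11 in sh*Pax6* and fell by 1.24 in JNK3 KO (adjusted p = 0.00028 and 0.0149), and had a difference of -0.01 in WT.

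The non-clustered protocadherins, which lie elsewhere and have no shared exons, fell too. Of 12 listed, 11 were tested and all 11 fell in WT (median -2.52), 6 fell in sh*Pax6* (median -1.29) and 0 were called in JNK3 KO (median -0.16). *Pcdh11x* (-3.67) and *Pcdh20* (-2.85) had the largest falls in WT (limma's adjusted p = 0.000105 and 0.00116), and *Pcdh8* (-2.53) and *Pcdh11x* (-2.02) in sh*Pax6* (adjusted p = 0.000682 and 0.00976). Of 14 other recognition molecules of retinal arbors and layers, 13 were tested, of which 11 fell in WT (median -1.67), 3 in sh*Pax6* (median -0.44) and 0 in JNK3 KO (median 0.05). *Cntn5* (-3.77) and *Cntn1* (-2.43), which encode contactins, led in WT (limma's adjusted p = 0.000322 and 1.19e-06). *Dscam* (-1.56), known for self-avoidance, and *Megf11* (-1.53), known for cell spacing, led in sh*Pax6* (adjusted p = 0.00579 and 0.000307).

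Markers of the cell types also moved with the treatments. The shares of all genes tested that fell were 20.9% in WT, 4.94% in sh*Pax6* and 1.87% in JNK3 KO. Those that rose were 14.2%, 8.64% and 0.777%, and both stand beside the counts of markers below. The summed level of 14 markers of retinal ganglion cells (RGC) was 794.19 to 820.36 FPKM in WT PBS, 515.86 to 532.91 in WT NMDA, 269.73 to 275.32 in PBS-injected sh*Pax6*, 99.71 to 115.17 in sh*Pax6* NMDA, 765.32 to 806.74 in JNK3 KO PBS and 232.66 to 233.06 in JNK3 KO NMDA. Of these markers 8 fell in WT, 10 in sh*Pax6* and 10 in JNK3 KO. The 11 amacrine markers summed to 551.17 to 564.2 FPKM in WT PBS and 244.04 to 252.32 in WT NMDA, 365.88 to 375.42 and 102.09 to 105.73 in sh*Pax6*, and 540.25 to 544.25 and 262.08 to 265.13 in JNK3 KO, and 7, 10 and 4 of them fell. The sums of both lists were lower after NMDA in all 3 genotypes.

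Neutrophil markers (5 genes) summed to 211.75 to 234.92 FPKM in WT PBS and 1943.05 to 1982.93 in WT NMDA, 5.16 to 6.09 and 66.41 to 73 in sh*Pax6*, and 155.4 to 169.26 and 13.12 to 13.94 in JNK3 KO, and 3, 5 and 0 of them rose while 4 fell in JNK3 KO. The microglia and macrophage markers (8 genes) summed to 124.07 to 134.44 FPKM with PBS and 210.34 to 210.77 with NMDA in WT, 60.71 to 61.99 and 369.9 to 375.73 in sh*Pax6*, and 103.69 to 112.03 and 84.77 to 85.11 in JNK3 KO. The sums of these immune lists were thus higher after NMDA in WT and sh*Pax6* and lower in JNK3 KO. The median log2 difference of the microglia and macrophage list was -0.61 in WT, 1.34 in sh*Pax6* and -0.53 in JNK3 KO.

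The Müller glia markers (7 genes) summed to 998.55 to 1027.67 FPKM with PBS and 1546.23 to 1561.74 with NMDA in WT, 1012.28 to 1054 and 1258.58 to 1340.38 in sh*Pax6*, and 1059.83 to 1060.31 and 1227.47 to 1261.03 in JNK3 KO. Rod markers (9 genes) summed to 25557 to 25665.2 FPKM with PBS and 25828.5 to 25888.4 with NMDA in WT, 33908.6 to 36656 and 21706.7 to 22059 in sh*Pax6*, and 26384 to 27055.8 and 22374.4 to 22473.4 in JNK3 KO. The glial sums were thus higher after NMDA in every genotype, and the rod sums were lower in sh*Pax6* and JNK3 KO. The median log2 difference of the Müller glia list was -0.52 in WT, -0.005 in sh*Pax6* and 0.30 in JNK3 KO. *Vim* alone went from 338.96 and 367.97 FPKM to 1154.12 and 1169.43 FPKM in WT. It went from 219.64 and 195.37 to 532.96 and 600.02 FPKM in sh*Pax6*, and from 345.74 and 358.4 to 635.45 and 653.86 FPKM in JNK3 KO. Without *Vim* the other Müller glia markers summed lower after NMDA in every genotype. Bipolar markers (8 genes) summed to 528.75 to 533.39 FPKM with PBS and 772.65 to 777.23 with NMDA in WT, 381.07 to 392.13 and 358.66 to 364.98 in sh*Pax6*, and 499.42 to 524.98 and 539.95 to 554.04 in JNK3 KO. In WT the median log2 difference of the bipolar list was -0.38, and *Pcp2* alone went from 171.71 and 184.54 FPKM to 547.64 and 534.85 FPKM. The markers of lens, RPE and cornea (9 genes) summed to 76.01 to 76.38 FPKM with PBS and 150.65 to 154.74 with NMDA in WT, 51.75 to 57.3 and 78.53 to 83.97 in sh*Pax6*, and 82.74 to 93.05 and 133.38 to 134.46 in JNK3 KO. No marker of these lists was at 0 in both libraries of a group, apart from *Krt5* and *Krt12* of the cornea in sh*Pax6* or JNK3 KO groups. In WT 2 microglia and macrophage markers rose and 3 fell, 1 Müller glia marker rose and 3 fell, 1 bipolar marker rose and 2 fell, 1 rod marker rose, and 2 markers of lens, RPE and cornea rose and 1 fell. In sh*Pax6* 4 microglia and macrophage and 2 Müller glia markers rose, and 2 of lens, RPE and cornea rose and 2 fell, while in JNK3 KO 2 microglia and macrophage markers fell. The part of these cell types in the members' levels was not tested.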

How the data were processed

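RNA-seq of 12 mouse retina libraries was analysed. The submitters' processing notes name STAR 2.7.1a, RSEM 1.3.3, edgeR 3.36.0, R 4.1.0 and GRCm38.p6, and the authors deposited FPKM per gene and per transcript, which are not counts. Members and lists were chosen with earlier results of these data known. After adding 0.1 to each FPKM and taking log2, 6 group means were fitted with limma 3.58.1 (lmFit, eBayes with a trend; 6 residual degrees of freedom) in R 4.3.3 (version 1.17.8 of data.table). Comparisons were the NMDA response in each genotype, each genotype against WT with PBS, and the differences between responses. Named genes were the C-type genes, the 3 other members per cluster with the highest mean, the called member with the largest difference per cluster and comparison, and the 2 called genes with the largest difference per list and response. No member was at 0 in all 12 libraries. Lengths and shared exons came from GENCODE M21, matched by Ensembl ID (58 of 58 members and 99.4% of all genes). The fit was tested on simulated data. Alternatives changed the pseudocount, filter, scaling, trend, call rule, length, transcript table, replicate block and libraries. Plots used matplotlib 3.10.9 under Python 3.11.15.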

Additional observations from a re-analysis of the deposited data

Results flagged for a closer look

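Results are given here because the NMDA response itself differed between genotypes by limma's test of the difference (Benjamini-Hochberg adjustment). Between sh*Pax6* and WT, 35 of the 58 members differed, beside 32% of all genes tested, with *Pcdha7* at 2.85, *Pcdhb19* at 2.63 and *Pcdhgc4* at -3.84 on the log2 scale. Between JNK3 KO and WT, 43 members differed, beside 35.6% of all genes tested, with *Pcdhac2* at 3.19, *Pcdhb2* at 4.16 and *Pcdhgc4* at -3.82. When genes were filtered by their mean over the 12 libraries, 34 members differed for sh*Pax6* and 39 for JNK3 KO. The shares above belong to the main filter. The differences share the WT libraries, whose NMDA pair stands apart in its summed FPKM.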

How the results depend on the processing

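The counts of members called kept to within 1.5 times the values above for the WT response (34 to 53 over the settings) and for both response differences (26 to 45 for sh*Pax6*, 29 to 49 for JNK3 KO). Leaving out 1 library gave 45 to 47, 32 to 39 and 35 to 42 calls for these, 2 to 3 for the sh*Pax6* response, 0 to 1 for the JNK3 KO response, 0 to 4 for sh*Pax6* PBS against WT PBS (4 without sh*Pax6* PBS replicate 2) and 0 to 0 for JNK3 KO PBS against WT PBS. The lone library left in a group is assumed to vary like the other groups. For the sh*Pax6* response the count was 6 with quantile normalization, 5 with the unadjusted p and 1 with the spread of the groups compared alone. For the JNK3 KO response it was 0 with pseudocounts of 0.5 and 1, without the filter, with the spread of the groups compared alone and in the transcript table, and 2 with quantile normalization and with no limit on the fold. For sh*Pax6* PBS against WT PBS it was 2 with a pseudocount of 0.5, 1 with a pseudocount of 1, TPM and no intensity trend, and 3 with the unadjusted p and with no limit on the fold. The causes were not tested, and shares of all genes called are not given for these settings.

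Replicate numbers are shared by the groups, but no label says that they pair libraries, and the correlations of same-numbered deviations ran from -0.097 to 0.086. With a replicate block the counts were 49, 3 and 1 for the responses in WT, sh*Pax6* and JNK3 KO, 35 and 41 for the response differences, and 1 (*Pcdha4*) and 0 for the comparisons under PBS.

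Without the short *Pcdhgc4* transcript, a setting chosen after seeing the data, *Pcdhgc4* reversed, to -3.13 in WT and to 2.12 and 2.66 in the response differences of sh*Pax6* and JNK3 KO. Its response in JNK3 KO was then -0.46 and was not called. The response differences of *Pcdhgc5* and of *Pcdha12* between JNK3 KO and WT each lost their call under 11 of 22 settings. With the length correction the member called in JNK3 KO was *Pcdhgc4*, lower, in place of *Pcdhb16*, higher. The cluster medians kept their sign under every setting run, apart from the gamma median in JNK3 KO without JNK3 KO PBS replicate 1, and those in WT ran from -3.06 to -0.83 (alpha), -2.25 to -1.11 (beta) and -3.03 to -1.47 (gamma), with TPM and a pseudocount of 1 at the ends. FPKM hold no counts, so limits of depth could not be given.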
